A study of Homo sapiens with 12 samples.

Results

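The ATP-binding cassette (ABC) transporters are membrane pumps that use ATP to move lipids, drugs, peptides, heme precursors and conjugates across membranes. The family was taken here as 43 symbols of subfamilies A to G, without the TAP peptide transporters, and all 43 matched an Ensembl identifier among the 61552 genes of the deposited count table. Of the 43, 42 had at least 1 read in some library, and 34 passed the filter on low counts and were tested with 20304 genes in all. The other 9, ABCA4, ABCA6, ABCA8, ABCA13, ABCB5, ABCB11, ABCC12, ABCG5 and ABCG8, were not tested, and ABCB5 had no read in any of the 12 libraries.

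The libraries come from cultured human neuroblastoma lines, a tumour of the sympathetic nervous system, and form 4 groups of 3. They are labelled SK-N-BE(2) with ML210, SK-N-BE(2) control, SK-N-AS with ML210 and SK-N-AS control, every line being labelled WT. ML210 inhibits GPX4, the selenoenzyme that detoxifies lipid hydroperoxides, and was applied overnight; no dose is given in the sources used here. Each group has 1 library from each of 3 batches. Only the batch label bears on whether they were separate cultures, and the p-values speak for the spread among the sequenced libraries alone. In the series' design SK-N-BE(2) is MYCN-amplified and SK-N-AS is not, and because each kind is a single line, the effect of MYCN and that of the line cannot be told apart.

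Subfamily A moves lipids such as cholesterol, phospholipids and glucosylceramide. Subfamilies B, C and G include the multidrug pumps ABCB1 (P-glycoprotein), ABCC1 (MRP1) and ABCG2 (BCRP), and MRP1 and MRP2 (ABCC2) export glutathione conjugates; MRP1 is well known in neuroblastoma for drug efflux. Subfamily D serves peroxisomes and lysosomes, while ABCE1 and the ABCF proteins span no membrane and act on ribosomes and translation.

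The line labels did not match the gene that names the contrast. MYCN averaged 0.154 ± 0.0899 CPM (counts scaled to the TMM-adjusted library total, SD, n = 3) in ML210 libraries and 0.166 ± 0.0727 CPM in controls labelled SK-N-BE(2), and 3855 ± 115 and 3558 ± 122 CPM in ML210 libraries and controls labelled SK-N-AS. The labels are kept, and each direction between lines below is a direction between libraries labelled SK-N-BE(2) and libraries labelled SK-N-AS. The 12 adrenergic neuroblastoma markers summed to 1280 to 1790 CPM (ML210) and 1520 to 1890 CPM (control) in libraries labelled SK-N-BE(2), and to 11100 to 11700 and 11700 to 12000 CPM in those labelled SK-N-AS. The 11 mesenchymal markers ran the other way, at 3660 to 4330 and 3570 to 4410 CPM labelled SK-N-BE(2), and 472 to 560 and 495 to 590 CPM labelled SK-N-AS. Among 7 blood cell markers, which summed to 163 to 289 and 264 to 330 CPM labelled SK-N-BE(2) and to at most 3.46 CPM labelled SK-N-AS, HBB was at 0 in all 4 groups. Endothelial markers (6 genes) summed to 1.45 to 2.3 and 1.94 to 3.09 CPM labelled SK-N-BE(2) and to 14.4 to 37.1 and 18.8 to 39.3 CPM labelled SK-N-AS. Epithelial markers (6 genes, KRT5 at 0 in every group) summed to 134 to 189 and 160 to 231 CPM labelled SK-N-BE(2) and to 7.75 to 10.5 and 10.0 to 14.0 CPM labelled SK-N-AS. Schwann cell markers (5 genes) did not exceed 16.2 CPM in any library. The part of these markers in the results was not tested.

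Libraries labelled SK-N-AS also carried traces of genes of the other label. Over 42 genes abundant in libraries labelled SK-N-BE(2), the median trace was 0.362%, 1.19% and 1.77% of the level there in ML210 replicates 1 to 3 and 0.346%, 1.69% and 1.48% in control replicates 1 to 3 labelled SK-N-AS. In libraries labelled SK-N-BE(2), 68 genes of the other label had medians between 0.283% and 0.527%. Both sets were protein-coding genes abundant in every library of their label and chosen under 3% of that level in every library of the other. This choice caps the highest trace, so a gene above 3% lies outside these sets by rule. Low levels of a member in the line label where it is scarce are therefore set beside these traces. GPX4, the target of ML210, was not called in any comparison and stood at 234.3 ± 17.1 CPM with ML210 and 246.8 ± 9.23 CPM in controls labelled SK-N-BE(2), against 248.4 ± 4.88 and 269.5 ± 11.2 CPM labelled SK-N-AS.

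In the fit without batch no member was called with ML210. The promoters shown are those of the 3 members called when both line labels were averaged and the batch was in the fit. They are RefSeq windows of 250 bases before to 50 after a start on GRCh38.p14, written 5′ to 3′ along the gene, with any match to the antioxidant response element core TGACNNNGC or the AP-1 motif TGANTCA, on either strand, in capitals. The window of ABCC2 lies at chr10:99782390-99782689 on the plus strand, that of ABCB1 at chr7:87600835-87601134 on the minus strand, and that of ABCA2 at chr9:137028873-137029172 on the minus strand.
ABCC2: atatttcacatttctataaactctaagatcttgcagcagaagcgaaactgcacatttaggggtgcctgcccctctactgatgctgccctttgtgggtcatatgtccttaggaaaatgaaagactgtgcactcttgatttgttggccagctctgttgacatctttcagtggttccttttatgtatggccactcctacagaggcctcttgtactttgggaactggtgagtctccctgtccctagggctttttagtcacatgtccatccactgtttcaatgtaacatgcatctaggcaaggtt
ABCB1: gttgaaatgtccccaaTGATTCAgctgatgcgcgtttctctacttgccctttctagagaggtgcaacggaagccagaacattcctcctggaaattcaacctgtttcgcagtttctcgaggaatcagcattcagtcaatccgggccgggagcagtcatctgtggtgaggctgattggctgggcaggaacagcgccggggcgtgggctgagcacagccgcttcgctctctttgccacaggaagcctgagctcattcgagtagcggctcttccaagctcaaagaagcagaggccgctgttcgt
ABCA2: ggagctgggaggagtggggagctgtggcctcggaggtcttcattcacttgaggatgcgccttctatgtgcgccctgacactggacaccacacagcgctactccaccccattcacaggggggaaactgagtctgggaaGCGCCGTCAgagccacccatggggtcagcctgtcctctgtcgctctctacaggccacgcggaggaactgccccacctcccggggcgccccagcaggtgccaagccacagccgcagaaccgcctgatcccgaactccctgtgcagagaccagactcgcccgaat
The ABCC2 window held neither motif. The ABCB1 window held 1 AP-1 match, at bases -234 to -228 from the start, and the other ABCB1 window, at chr7:87713246-87713545, held none. The ABCA2 window shown held 1 antioxidant response element core, at -113 to -105, and the other ABCA2 window held none. Windows were found for 35 of the 43 members, 53 windows in all. The antioxidant response element core was in 12 of them (22.6%), against 13.3% of all 35116 promoter windows, and the AP-1 motif was in 6 (11.3%), against 7.71% of all. An E-box (CACGTG) was in 9 windows of 8 genes (17% of windows, against 7.26% of all), the pair of ABCG2 windows overlapping on the same match, and a GC box (GGGCGG) in 25 (47.2%, against 45%). Windows of the same gene can overlap, the motifs can overlap each other, and a match describes letters only.

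The family took 0.128% to 0.142% of counted reads in ML210 libraries and 0.124% to 0.13% in controls labelled SK-N-BE(2), against 0.196% to 0.197% and 0.19% to 0.196% in those labelled SK-N-AS. Per length of exon, the 43 genes summed to 190.1 ± 7.62 RPKM (CPM divided by exonic length in kilobases) with ML210 and 182.3 ± 5.80 RPKM in controls labelled SK-N-BE(2), against 301.0 ± 2.76 and 309.7 ± 4.67 RPKM labelled SK-N-AS. Subfamily A made up the largest part of the gap. It summed to 10.45 ± 0.439 RPKM (ML210) and 10.61 ± 0.514 RPKM (control) labelled SK-N-BE(2), against 79.91 ± 1.33 and 79.59 ± 3.73 RPKM labelled SK-N-AS. Subfamily B summed to 19.37 ± 0.108 and 19.7 ± 1.06 RPKM labelled SK-N-BE(2), against 38.07 ± 1.25 and 38.69 ± 1.17 RPKM labelled SK-N-AS, and subfamily C to 52.85 ± 7.33 and 43.46 ± 3.75 RPKM, against 59.72 ± 2.88 and 59.88 ± 1.14 RPKM. Subfamily G summed to 0.166 ± 0.0447 and 0.157 ± 0.0534 RPKM labelled SK-N-BE(2), against 14.48 ± 3.25 and 16.8 ± 2.60 RPKM labelled SK-N-AS. Subfamilies E and F were nearly level, with ABCF sums of 62.46 ± 2.59 and 63.29 ± 0.997 RPKM labelled SK-N-BE(2) and 61.24 ± 2.81 and 65.53 ± 1.45 RPKM labelled SK-N-AS. These are bulk cultures, so fewer cells with a transcript and less of it per cell cannot be told apart.

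In libraries labelled SK-N-BE(2) the order of levels per length was led by ABCF1, which associates with translation initiation factor eIF2, at 42.3 ± 2.52 RPKM with ML210 and 43.5 ± 0.695 RPKM in controls. ABCE1, which splits ribosomes after termination, followed at 31.6 ± 3.18 and 31.6 ± 1.36 RPKM, and ABCC1 at 15.9 ± 0.508 and 16.4 ± 1.01 RPKM. With ML210 ABCC2 came next at 13.8 ± 5.00 RPKM, while in controls it held rank 9 at 6.18 ± 1.91 RPKM; the SD of ABCC2 with ML210 spans its neighbours ABCC1 and ABCB10. The neighbours ABCC4, ABCF3 and ABCF2, at 10.4 ± 0.655, 10.2 ± 0.654 and 9.65 ± 0.428 RPKM in controls, did not stand apart beyond their SDs.

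In libraries labelled SK-N-AS the order was led by ABCA3, which loads phospholipid into lung lamellar bodies, at 63.4 ± 2.14 RPKM with ML210 and 64.7 ± 1.94 RPKM in controls. ABCC1 (38.0 ± 2.52 and 38.9 ± 1.02 RPKM), ABCF1 (35.6 ± 1.89 and 38.8 ± 1.99 RPKM) and ABCE1 (33.2 ± 1.31 and 33.9 ± 2.09 RPKM) came next, and in controls ABCC1 and ABCF1 lay within 1 SD of each other. ABCB1 was next at 21.1 ± 0.691 and 21.3 ± 0.419 RPKM, followed by ABCG1 at 14.3 ± 3.23 and 16.7 ± 2.58 RPKM. The highest member of each remaining subfamily was ABCB10 (12.3 and 13.0 RPKM) and ABCD3 (7.53 and 7.68 RPKM) labelled SK-N-BE(2), with ABCD3 (6.59 and 6.93 RPKM) labelled SK-N-AS. ABCG2 was the highest ABCG member labelled SK-N-BE(2), at only 0.0943 and 0.0955 RPKM, and ABCA3 the highest ABCA member there, at 4.39 ± 0.861 and 4.94 ± 0.84 RPKM. At least 10 CPM was reached by 19 members in either group labelled SK-N-BE(2) and by 20 in either group labelled SK-N-AS; under 1 CPM were 19 and 20 members labelled SK-N-BE(2) and 19 and 18 labelled SK-N-AS.

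**Figure D1:**
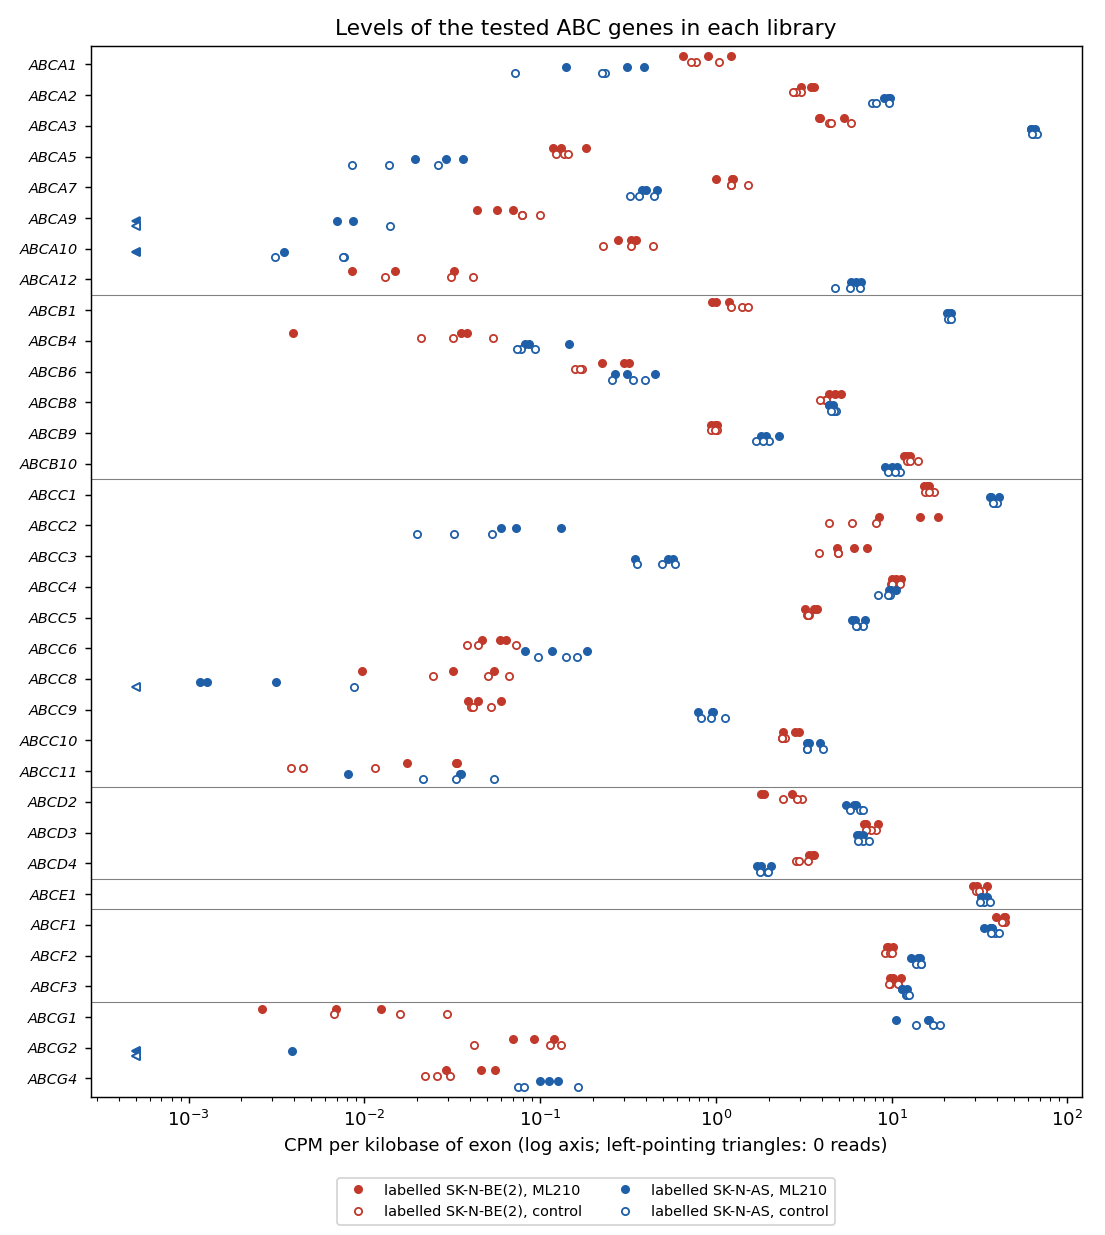
Level of the 34 tested members per length (CPM per kilobase of exon, which is RPKM, on a log axis) in each of 12 libraries, 1 point a library, with triangles at the left edge for 0 reads and lines between subfamilies. ABCA3, ABCB1 and ABCG1 lie far to the right in libraries labelled SK-N-AS (means of 63.4, 21.1 and 14.3 RPKM with ML210) and the translation factors ABCE1 and ABCF1 nearly coincide in all 4 groups.

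Between the control libraries, which asks how the untreated lines differ, 30 of the 34 tested members were called at an adjusted p under 0.05 (12 higher and 18 lower in libraries labelled SK-N-BE(2)), when 69.2% of all genes tested were called (33.9% higher, 35.2% lower). Among ML210 libraries, which share no library with the controls, 28 members were called (12 higher, 16 lower), against 69.0% of all genes (34.6% higher, 34.5% lower). In both comparisons 27 members were called the same way (12 higher and 15 lower) and none in opposite directions, while 62.5% of all genes were called the same way in both. ABCB6, ABCB8 and ABCC11 were called in controls alone and ABCB4 in ML210 libraries alone; whether these differences depend on ML210 is tested by the difference of the responses given further on. ABCC4, ABCD3 and ABCE1 were called in neither. The median log2 difference of tested members was -0.42 between controls and -0.12 between ML210 libraries, against -0.01 and 0.02 over all genes. The groups did not overlap for 32 of 34 members between controls (94.1%), against 74.0% of all genes, and for 29 (85.3%) between ML210 libraries, against 73.1%. Scaling by library totals moved the median of all genes to 0.24 between controls, with 8575 genes called higher and 5550 lower in place of 6893 and 7154, and the members to 14 higher and 16 lower. Between ML210 libraries it moved that median to 0.22, with 8347 genes called higher and 5737 lower in place of 7017 and 6997, and members to 15 and 14 with a median of 0.08.

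**Figure D2:**
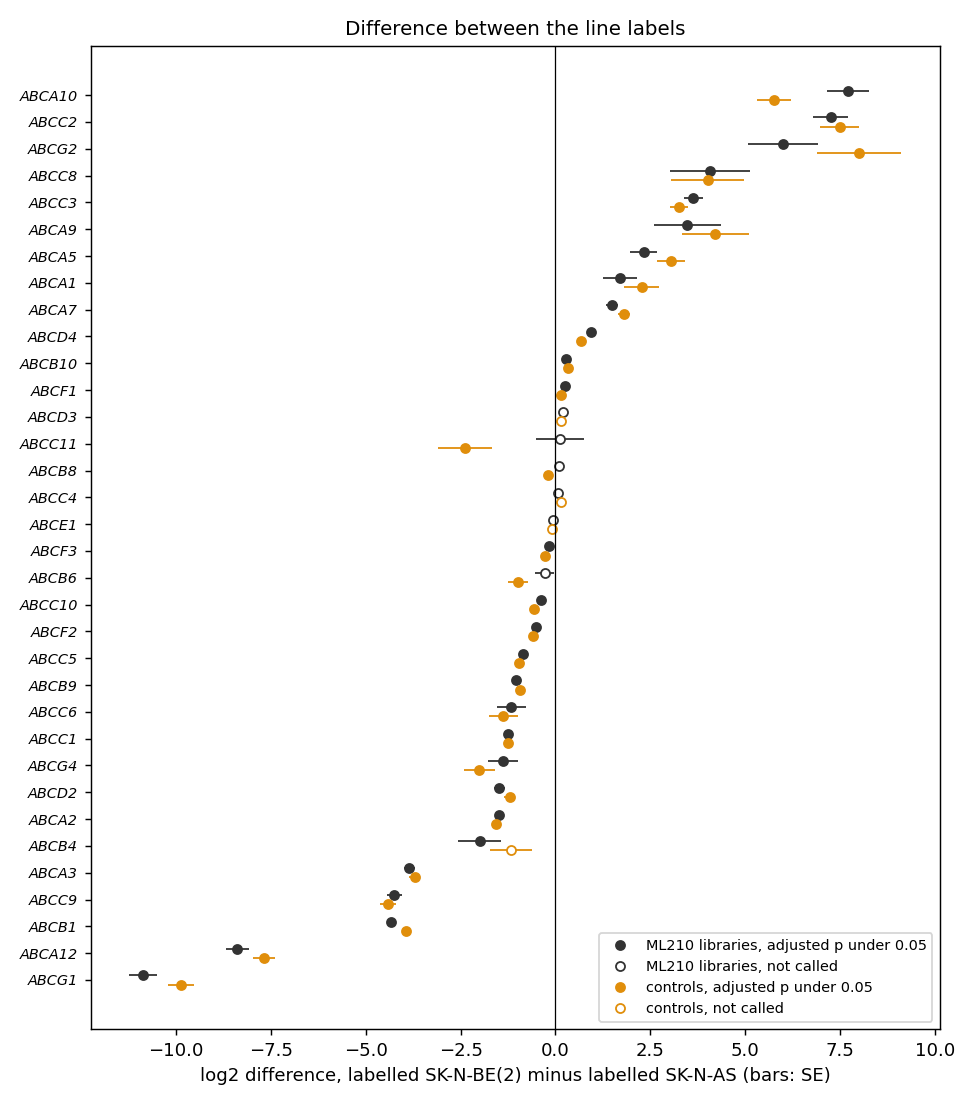
log2 difference of each tested member, libraries labelled SK-N-BE(2) minus libraries labelled SK-N-AS, for ML210 libraries and for controls, with bars of 1 SE and filled points for an adjusted p under 0.05. ABCG1 and ABCA12 stand at the far left (-9.87 and -7.67 between controls) and ABCC2 and ABCA10 at the far right (7.49 and 5.76), beside ABCG2, whose fold rests on controls without a read.

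Lipid transporters of subfamilies A and G split widely between the line labels. All 8 tested ABCA members were called in both comparisons, 5 higher and 3 lower in libraries labelled SK-N-BE(2). ABCA3 (ENSG00000167972, chromosome 16, 2275881 to 2340746 in GENCODE 29 on GRCh38) had 30.7, 30.0 and 42.0 CPM in ML210 libraries and 34.3, 35.2 and 46.1 CPM in controls labelled SK-N-BE(2), against 514.0, 486.4 and 484.0 CPM and 500.9, 522.1 and 492.7 CPM labelled SK-N-AS. Every library labelled SK-N-BE(2) was below every one labelled SK-N-AS, and the log2 difference was -3.71 between controls (SE 0.144, edgeR quasi-likelihood adjusted p = 5.2e-10) and -3.85 between ML210 libraries (SE 0.145, adjusted p = 4.43e-10).

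ABCA12, which carries glucosylceramide in keratinocytes, had 0.304, 0.0803 and 0.141 CPM with ML210 and 0.390, 0.124 and 0.293 CPM in controls labelled SK-N-BE(2), against 55.4, 59.1 and 62.9 CPM and 45.1, 61.9 and 54.9 CPM labelled SK-N-AS. The log2 difference between controls was -7.67 (SE 0.291, adjusted p = 6.55e-10). Its level labelled SK-N-BE(2) was 0.142% to 0.689% of that labelled SK-N-AS, close to the median traces of those libraries. ABCA2, an endolysosomal lipid transporter of brain, had 40.3, 41.9 and 35.3 CPM with ML210 and 35.2, 32.9 and 31.8 CPM in controls labelled SK-N-BE(2), against 104.8, 110.1 and 112.9 CPM and 88.7, 111.4 and 94.5 CPM labelled SK-N-AS, a log2 difference of -1.56 between controls (SE 0.0879, adjusted p = 1.81e-09).

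The ABCA members higher in libraries labelled SK-N-BE(2) were ABCA1, ABCA5, ABCA7, ABCA9 and ABCA10, with at most 13.8 CPM in any library. ABCA1, which passes cholesterol and phospholipid to apolipoprotein A-I, had 7.38, 13.8 and 10.3 CPM with ML210 and 8.81, 11.9 and 8.19 CPM in controls labelled SK-N-BE(2), against 1.59, 3.57 and 4.45 CPM and 0.819, 2.64 and 2.56 CPM labelled SK-N-AS, with a log2 difference of 2.27 between controls (SE 0.469, adjusted p = 0.00135). ABCA7, a phospholipid transporter known as an Alzheimer disease risk gene, had 10.4, 10.5 and 8.43 CPM with ML210 and 10.3, 12.7 and 10.2 CPM in controls labelled SK-N-BE(2), against 3.37, 3.87 and 3.19 CPM and 2.73, 3.72 and 3.05 CPM labelled SK-N-AS, a log2 difference of 1.81 (SE 0.158, adjusted p = 1.73e-07). For both genes every library labelled SK-N-BE(2) was above every one labelled SK-N-AS.

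ABCA5, ABCA9 and ABCA10 lie in a row of related genes on chromosome 17, ordered ABCA8, ABCA9, ABCA6, ABCA10 and ABCA5, in which ABCA10 and ABCA5 share 318 exonic bases on 1 strand. ABCA5 had 2.42, 1.56 and 1.72 CPM with ML210 and 1.62, 1.81 and 1.90 CPM in controls labelled SK-N-BE(2), against 0.256, 0.382 and 0.478 CPM and 0.182, 0.112 and 0.348 CPM labelled SK-N-AS, a log2 difference of 3.05 (SE 0.371, adjusted p = 5.08e-06). ABCA10 had 2.76, 2.97 and 2.33 CPM with ML210 and 2.76, 3.70 and 1.93 CPM in controls labelled SK-N-BE(2), against 0, 0.0294 and 0 CPM and 0.0260, 0.0641 and 0.0632 CPM labelled SK-N-AS, a log2 difference of 5.76 between controls (SE 0.449, adjusted p = 5.14e-08). From 532 against 2 reads, the ABCA10 ratio between ML210 libraries was 243 (95% counting interval 66.9 to 2010). Its levels labelled SK-N-AS, 0% to 2.34% of the other label, were of the order of the traces there.
ABCA9 had 0.638, 0.402 and 0.523 CPM with ML210 and 0.909, 0.717 and 0.726 CPM in controls labelled SK-N-BE(2), against 0.0787, 0 and 0.0638 CPM and 0, 0.128 and 0 CPM labelled SK-N-AS (log2 difference 4.21, SE 0.885, adjusted p = 0.00075). All 3 tested genes of the row were thus higher in libraries labelled SK-N-BE(2), and the untested ABCA6 and ABCA8 had 9 and 87 reads over all 12 libraries.

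Among the ABCG members, ABCG1, which exports cholesterol to lipoproteins (ENSG00000160179, chromosome 21, 42199689 to 42297244), had 0.0759, 0.0161 and 0.0424 CPM with ML210 and 0.0974, 0.0414 and 0.181 CPM in controls labelled SK-N-BE(2), against 64.9, 98.4 and 99.8 CPM and 84.6, 106.0 and 115.4 CPM labelled SK-N-AS. The log2 difference was -9.87 between controls (SE 0.335, adjusted p = 5.61e-10) and -10.86 between ML210 libraries (SE 0.371, adjusted p = 6.44e-10). Libraries labelled SK-N-BE(2) held only 9 ABCG1 reads with ML210 and 22 in controls. Their levels were 0.0169% to 0.191% of that labelled SK-N-AS, below the median trace of each library. ABCG4, its close relative in brain, had 0.349, 0.289 and 0.184 CPM with ML210 and 0.162, 0.193 and 0.140 CPM in controls labelled SK-N-BE(2), against 0.630, 0.792 and 0.701 CPM and 0.468, 1.03 and 0.506 CPM labelled SK-N-AS (log2 difference -2.00, SE 0.416, adjusted p = 0.000689). ABCG2 went the other way at a low level, with 0.608, 0.353 and 0.466 CPM with ML210 and 0.211, 0.662 and 0.572 CPM in controls labelled SK-N-BE(2), against 0.0197, 0 and 0 CPM and no read in the 3 controls labelled SK-N-AS. The 102 ABCG2 reads in controls labelled SK-N-BE(2) made it at least 33.5-fold higher there, against a floor of 3 reads over the group, and between ML210 libraries 95 reads against 1 gave a ratio of 86.8 (95% counting interval 15.2 to 3460).

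Multidrug pumps also differed in both directions. ABCB1 (ENSG00000085563, chromosome 7, 87503633 to 87713323) had 6.94, 5.51 and 5.82 CPM with ML210 and 8.20, 7.05 and 8.81 CPM in controls labelled SK-N-BE(2), against 121.0, 127.3 and 119.9 CPM and 124.2, 121.3 and 126.2 CPM labelled SK-N-AS. The log2 difference between controls was -3.95 (SE 0.0955, adjusted p = 8.47e-13). Its neighbour ABCB4, a phosphatidylcholine floppase of bile canaliculi, starts 23197 bases away and did not exceed 1.12 CPM in any library; it was lower in ML210 libraries labelled SK-N-BE(2) than in those labelled SK-N-AS (log2 difference -1.99, SE 0.566, adjusted p = 0.00631, or 0.0571 with batch in the fit) and was not called between controls (-1.17, SE 0.547, adjusted p = 0.0711).

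ABCC1 (ENSG00000103222, chromosome 16, 15949577 to 16143074) had 120.5, 123.9 and 116.3 CPM with ML210 and 132.4, 117.1 and 123.8 CPM in controls labelled SK-N-BE(2), against 309.9, 280.2 and 274.2 CPM and 295.4, 302.0 and 286.6 CPM labelled SK-N-AS (log2 difference -1.24, SE 0.0615, adjusted p = 4.91e-10). ABCC2 (ENSG00000023839, chromosome 10, 99782640 to 99852594) had 144.1, 113.8 and 66.3 CPM with ML210 and 64.2, 46.7 and 34.4 CPM in controls labelled SK-N-BE(2), against 0.472, 0.572 and 1.04 CPM and 0.156, 0.417 and 0.253 CPM labelled SK-N-AS. The ABCC2 log2 difference was 7.49 between controls (SE 0.505, adjusted p = 5.33e-07). Its levels labelled SK-N-AS were 0.199% to 1.32% of those labelled SK-N-BE(2), above the median trace of the library in ML210 replicate 1 alone (0.604% against 0.362%) and below it in the other libraries. ABCC3 (MRP3), another exporter of organic anions, had 58.6, 69.4 and 46.8 CPM with ML210 and 47.9, 47.5 and 36.9 CPM in controls labelled SK-N-BE(2), against 3.33, 5.47 and 5.16 CPM and 3.43, 5.62 and 4.77 CPM labelled SK-N-AS (log2 difference 3.26, SE 0.238, adjusted p = 2.68e-07).

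ABCC8 and ABCC9 encode the sulfonylurea receptor subunits of ATP-sensitive potassium channels and went in opposite directions. ABCC9 had 0.699, 0.514 and 0.452 CPM with ML210 and 0.471, 0.483 and 0.614 CPM in controls labelled SK-N-BE(2), against 9.25, 11.1 and 11.2 CPM and 9.55, 10.8 and 13.2 CPM labelled SK-N-AS (log2 difference -4.41, SE 0.205, adjusted p = 2.71e-10). The levels labelled SK-N-BE(2) were 4.17% to 6.45% of those labelled SK-N-AS, above the median trace of each library. The trace genes were chosen to lie below such levels, so this comparison is limited by their choice. ABCC8 had 0.122, 0.402 and 0.692 CPM with ML210 and 0.308, 0.635 and 0.837 CPM in controls labelled SK-N-BE(2), against 0.0394, 0.0147 and 0.0159 CPM and 0, 0 and 0.111 CPM labelled SK-N-AS (log2 difference 4.01, SE 0.964, adjusted p = 0.00208, from 125 and 7 reads). KCNJ8, the pore that pairs with ABCC9, averaged 15.9 ± 2.03 CPM in controls labelled SK-N-BE(2) and 246.6 ± 17.8 CPM in controls labelled SK-N-AS (log2 difference -3.95, SE 0.167, adjusted p = 2.08e-09), and KCNJ11, which pairs with ABCC8, averaged 1.17 ± 0.303 and 0.607 ± 0.127 CPM and was not called (0.94, SE 0.408, adjusted p = 0.0532).

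The other called members had the following log2 differences. Lower in controls labelled SK-N-BE(2) were ABCC11 (-2.39), ABCC6 (-1.37), ABCD2 (-1.20), ABCB6 (-0.98), ABCC5 (-0.96), ABCB9 (-0.92), ABCF2 (-0.58), ABCC10 (-0.57) and ABCF3 (-0.28). ABCC11, a lipophilic anion pump, was at trace level, with 0.0325, 0.0276 and 0.0837 CPM in controls labelled SK-N-BE(2) and 0.156, 0.240 and 0.395 CPM in controls labelled SK-N-AS. Higher were ABCD4 (0.68), which serves lysosomal cobalamin export, ABCB10 (0.33), a mitochondrial inner membrane transporter needed for heme synthesis, and ABCF1 (0.16), which was not called without control replicate 1 or 3 labelled SK-N-AS (adjusted p = 0.0583 and 0.119). ABCB8, a mitochondrial transporter, was called lower between controls (-0.19, adjusted p = 0.0221) but stood at 0.06 when scaled by library totals, and was not called with batch in the fit (adjusted p = 0.0756) or when any control other than replicate 3 labelled SK-N-AS was left out (adjusted p 0.0513 to 0.198). ABCF3 was called lower in both comparisons; library totals gave -0.03 between controls (adjusted p = 0.697). Between ML210 libraries it stood at -0.17, where library totals gave 0.03, batch in the fit an adjusted p of 0.0914, and leaving out ML210 replicate 1 of the SK-N-AS label, or replicate 1 or 3 of the SK-N-BE(2) label, 0.097, 0.0976 and 0.123. Counts of ABCB6, ABCF2 and ABCB9 are uncertain because 2864 exonic bases of ABCB6 are shared with ENSG00000284820, 1914 of ABCF2 with ABCF2-H2BK1, and up to 2752 of ABCB9 with genes on the opposite strand. ABCC6 has pseudogene copies nearby, so its counts are uncertain as well; between ML210 libraries it was not called without ML210 replicate 1 labelled SK-N-AS (-0.81, adjusted p = 0.0808). With replicate 1 as the only library labelled SK-N-AS per group, the one with the lowest traces, 24 of 36 tested members (66.7%) were called between controls, against 52.9% of all genes, and 23 (63.9%) between ML210 libraries, against 52.1%. This alternative was chosen after seeing the data, and the lone library is assumed to vary like those of the other groups.

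The question of the series is the response to ML210, and in this fit no member passed its test. None of the 34 tested was called at an adjusted p under 0.05 by edgeR in ML210 against control libraries labelled SK-N-BE(2), where 1.37% of all genes were called (279 genes), or labelled SK-N-AS, where 0.0296% were (6 genes). None was called for the mean of both line labels, where 1.23% of all genes were (250 genes), or for the difference of the responses, where 0.00493% were (1 gene). At an unadjusted p under 0.05 there were 8 members labelled SK-N-BE(2) (23.5%, against 13.5% of all genes), 1 labelled SK-N-AS (2.94%, against 6.89%), 5 for the mean (14.7%, against 14.1%) and 3 for the difference (8.82%, against 7.16%). DESeq2, in the same order, called 1 of 42 members (2.38%, against 2.04% of all genes), 0 (against 0.127%), 2 (4.76%, against 2.1%) and 0 (against 0.105%). The median log2 difference of members was 0.01 labelled SK-N-BE(2) and -0.03 labelled SK-N-AS, against 0.00 and -0.01 over all genes. Levels in ML210 and control libraries did not overlap for 8 of 34 members labelled SK-N-BE(2) (6 higher and 2 lower, 23.5%), against 17.4% of all genes, and for 1 labelled SK-N-AS (2.94%), against 14.9%.

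Because a batch label is shared by libraries of the same number, a fit with the batch of each line label as a block was set beside the main one, and it changed the calls. Labelled SK-N-BE(2), it called 5 members (14.7%), against 6.83% of all genes (1386 genes, 3.42% higher and 3.4% lower). These were ABCC2, ABCC3 and ABCB8, higher with ML210, and ABCB1 and ABCD2, lower. For the mean of both line labels it called 3, ABCC2 and ABCA2 higher and ABCB1 lower (8.82%), against 6.11% of all genes (1240 genes, 2.68% higher and 3.42% lower). Labelled SK-N-AS and for the difference of the responses it called 0 members, against 0.187% and 0.419% of all genes; 8 members (23.5%, against 11.2% of all genes) and 7 (20.6%, against 12.5%) had an unadjusted p under 0.05 there. With the batch in the fit markers moved with ML210 too, and 1 of 12 adrenergic markers was called higher and 5 lower labelled SK-N-BE(2); their part in the members' calls was not tested.

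**Figure D3:**
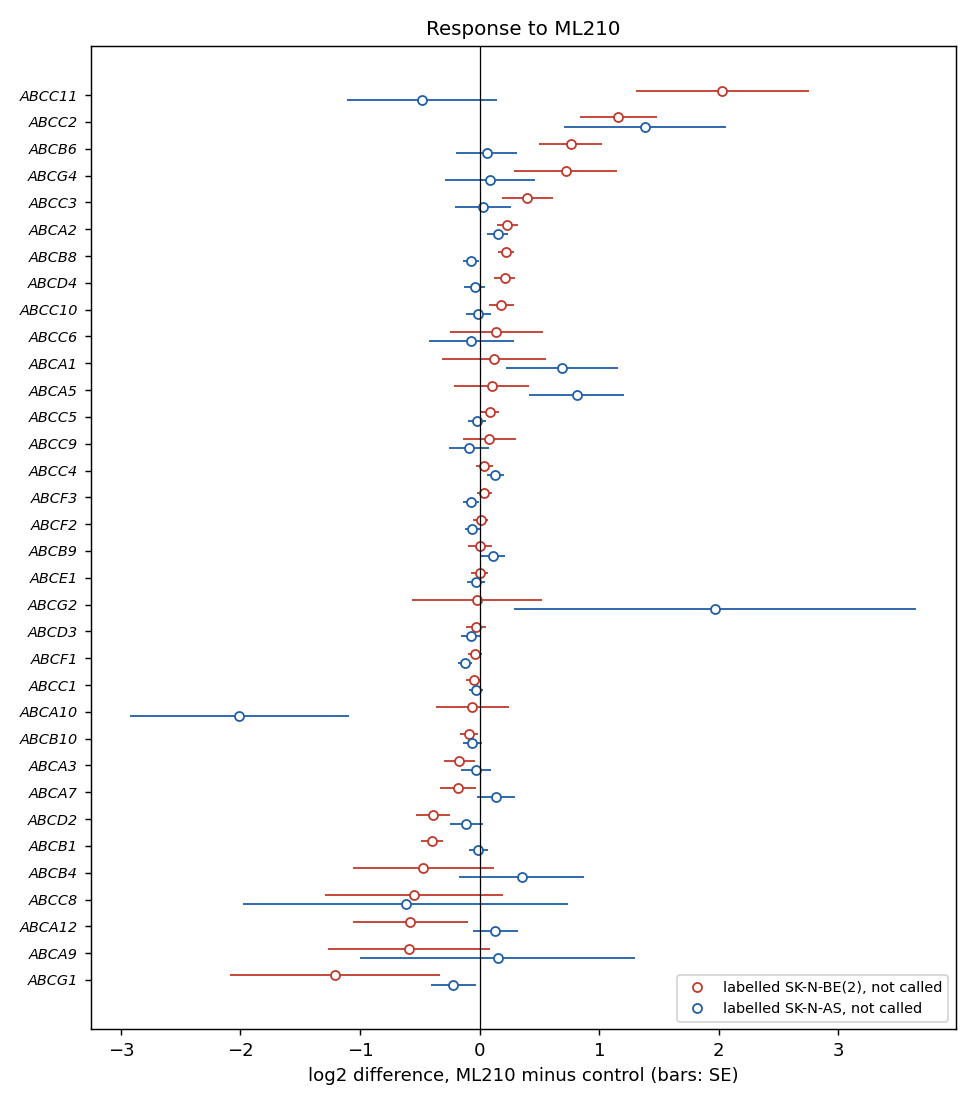
log2 difference of each tested member, ML210 minus control, in libraries labelled SK-N-BE(2) and SK-N-AS without batch in the fit, with bars of 1 SE and open points because none passed an adjusted p of 0.05. ABCC2 is the member to the right of 1 under both labels (1.16 and 1.38), and ABCC11, ABCA10 and ABCG2 carry wide bars at low counts. The ABCC2 point labelled SK-N-AS rests on 128 reads with ML210 and 54 in controls, at levels of the order of the traces.

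ABCC2 showed the widest shift labelled SK-N-BE(2) among members above 10 CPM. Its ML210 libraries labelled SK-N-BE(2), at 144.1, 113.8 and 66.3 CPM, were all above the controls at 64.2, 46.7 and 34.4 CPM, and ML210 exceeded control in each of the 3 batches. The log2 difference was 1.16 (2.23-fold, SE 0.325, edgeR adjusted p = 0.136), and with batch in the fit 1.13 (SE 0.096, adjusted p = 0.000153). Labelled SK-N-AS it was 1.38 (SE 0.676, adjusted p = 0.76; 1.32 and 0.121 with batch), at levels of the order of the traces described above. For the mean of both labels the difference was 1.27 (SE 0.372, adjusted p = 0.149; 1.23 and 0.00145 with batch), and the responses of the labels differed by -0.22 (SE 0.746, adjusted p = 0.987). DESeq2, without batch, gave 1.25 for the mean of both labels (adjusted p = 0.00698) and did not call ABCC2 within either label. Without ML210 replicate 3 labelled SK-N-BE(2), the lowest of the 3, the difference in that label was 1.39 (edgeR adjusted p = 0.0288). The mean of both labels then also gave 1.39 (edgeR adjusted p = 0.0474). Leaving out any other library gave no ABCC2 call with ML210.

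ABCC3, given in addition to the members named by rule because batch changed its call, had 58.6, 69.4 and 46.8 CPM with ML210 and 47.9, 47.5 and 36.9 CPM in controls labelled SK-N-BE(2). The groups overlapped, while each ML210 library was above the control of its batch. The log2 difference was 0.40 (SE 0.211, adjusted p = 0.458), and 0.39 with batch (SE 0.0682, adjusted p = 0.00546). Labelled SK-N-AS it was 0.03 (SE 0.236, adjusted p = 1.0). The other tested organic anion pumps, ABCC1, ABCC4, ABCC5, ABCC6, ABCC10 and ABCC11, were not called with ML210, and ABCC1 differed by -0.05 (SE 0.0607) labelled SK-N-BE(2) and -0.03 (SE 0.0605) labelled SK-N-AS.

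ABCB1 stood lower with ML210 in all 3 batches labelled SK-N-BE(2). Its ML210 libraries, at 6.94, 5.51 and 5.82 CPM, were all below the controls at 8.20, 7.05 and 8.81 CPM. The log2 difference was -0.40 (0.76-fold, SE 0.0924, adjusted p = 0.0531; with batch -0.40, SE 0.0747, adjusted p = 0.00793), and DESeq2 gave -0.41 with an adjusted p of 0.00511. It also passed without control replicate 2 (-0.49, adjusted p = 0.0376), without ML210 replicate 1 (-0.51, adjusted p = 0.0277) or without ML210 replicate 3 (-0.38, adjusted p = 0.0405) of that label. It was not called without control replicate 1 or 3 or ML210 replicate 2, with library totals, or in a fit of the 2 groups alone. In libraries labelled SK-N-AS, where ABCB1 was at 119.9 to 127.3 CPM with ML210 and 121.3 to 126.2 CPM in controls, it was -0.01 (SE 0.0829, adjusted p = 0.998). The responses differed by -0.38 (SE 0.124, adjusted p = 0.553; 0.107 with batch).

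ABCB8 had 44.2, 48.4 and 41.4 CPM with ML210 and 39.2, 39.4 and 36.6 CPM in controls labelled SK-N-BE(2), so that all ML210 libraries were above all controls. The log2 difference was 0.22 (1.16-fold, SE 0.0671, adjusted p = 0.138; 0.0373 with batch). Labelled SK-N-AS, ML210 libraries had 41.2, 43.2 and 41.1 CPM and controls 44.98, 44.1 and 42.3 CPM, lower with ML210 in all 3 batches (-0.07, SE 0.0671, adjusted p = 0.921). The responses differed by 0.28 (SE 0.0949, adjusted p = 0.574; 0.15 with batch).

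ABCA2 had 40.3, 41.9 and 35.3 CPM with ML210 and 35.2, 32.9 and 31.8 CPM in controls labelled SK-N-BE(2), where all ML210 libraries were above all controls. The difference was 0.23 labelled SK-N-BE(2) (SE 0.0868, adjusted p = 0.227), 0.15 labelled SK-N-AS (SE 0.0854, adjusted p = 0.788), and 0.19 for the mean of both (SE 0.0609, adjusted p = 0.142; 0.0256 with batch, and 0.0406 without ML210 replicate 3 labelled SK-N-BE(2)). ABCD2, a peroxisomal importer of very long chain fatty acids that was also named in addition, had 11.3, 11.8 and 16.9 CPM with ML210 and 19.4, 14.97 and 18.2 CPM in controls labelled SK-N-BE(2). Each ML210 library was below the control of its batch although the groups overlapped, and the difference was -0.39 (SE 0.145, adjusted p = 0.229; 0.0386 with batch), or -0.62 without ML210 replicate 3 of that label (adjusted p = 0.00564). Labelled SK-N-AS, ABCD2 differed by -0.11 (SE 0.141, adjusted p = 0.952). Leaving out any other library gave no call of ABCA2 or ABCD2 with ML210.

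**Figure D4:**
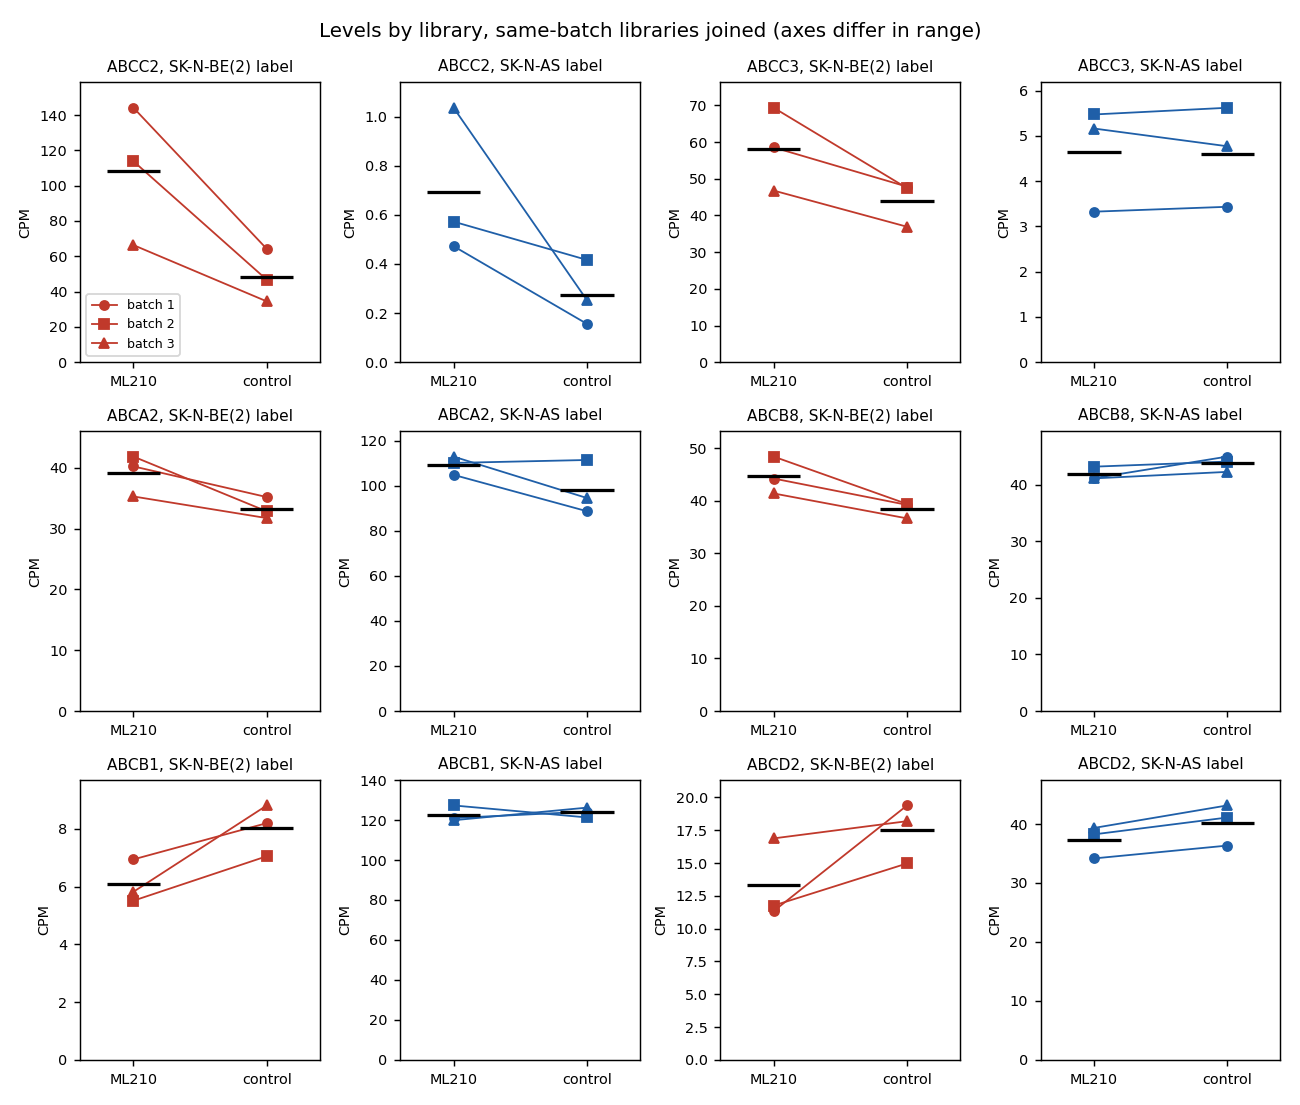
CPM of ABCC2, ABCC3, ABCA2, ABCB8, ABCB1 and ABCD2 in each library, ML210 left of control, with lines joining libraries of the same batch, black bars for group means and a separate vertical axis from 0 in each panel. In libraries labelled SK-N-BE(2) every line falls to the control for ABCC2, ABCC3, ABCA2 and ABCB8 and climbs for ABCB1 and ABCD2; ABCC2 averaged 108.1 CPM with ML210 and 48.4 CPM in controls.

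The smallest unadjusted p labelled SK-N-AS belonged to ABCA10, ABCA5 and ABCF1, none of them called. ABCA10 had 2 reads over the 3 ML210 libraries and 10 over the controls, a control over ML210 ratio of 4.48 (95% counting interval 0.956 to 42.1). ABCA5 differed by 0.81 (SE 0.395, adjusted p = 0.743) at 0.256, 0.382 and 0.478 CPM with ML210 and 0.182, 0.112 and 0.348 CPM in controls. ABCF1 had 163.6, 168.3 and 151.8 CPM with ML210 and 176.4, 184.2 and 166.2 CPM in controls, a difference of -0.12 (SE 0.06, adjusted p = 0.743), lower in each batch while the groups overlapped.

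For the difference of the responses the 3 smallest unadjusted p belonged to ABCB1, ABCB8 and ABCC11. ABCC11 had 0.243, 0.241 and 0.127 CPM with ML210 and 0.0325, 0.0276 and 0.0837 CPM in controls labelled SK-N-BE(2), from 40 and 10 reads. Labelled SK-N-AS it had 0.256, 0.0587 and 0.255 CPM with ML210 and 0.156, 0.240 and 0.395 CPM in controls. Its responses differed by 2.51 (SE 0.956, adjusted p = 0.621), at low counts in all 4 groups. The responses of ABCB6 differed by 0.71 (SE 0.364, adjusted p = 0.738) and those of ABCB4 by -0.82 (SE 0.782, adjusted p = 0.877). Labelled SK-N-BE(2), all ML210 libraries were above all controls for ABCB6, which was not called (0.76, SE 0.262, adjusted p = 0.189, or 0.0965 with batch). Labelled SK-N-AS, ABCB6 differed by 0.06 (SE 0.254).

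ABCE1, ABCF1, ABCB10, ABCD3 and ABCG1, abundant in one or both line labels, were not called with ML210 in any alternative run, with or without batch. ABCE1 had 220.1, 181.8 and 191.7 CPM with ML210 and 206.7, 189.7 and 197.2 CPM in controls labelled SK-N-BE(2), a difference of 0.00 (SE 0.0719), and 202.7, 203.9 and 217.5 against 210.1, 200.4 and 226.3 CPM labelled SK-N-AS, a difference of -0.03 (SE 0.0719). ABCF1 labelled SK-N-BE(2) had 178.3, 199.4 and 196.5 CPM with ML210 and 199.1, 197.8 and 193.2 CPM in controls (-0.04, SE 0.0599). ABCG1 labelled SK-N-AS differed by -0.22 (SE 0.187, adjusted p = 0.894; -0.23, SE 0.0652 and adjusted p = 0.213 with batch), lower in all 3 batches while the groups overlapped. ABCA3 differed by -0.17 labelled SK-N-BE(2) (adjusted p = 0.666; 0.0579 with batch), lower in all 3 batches, and was called there without ML210 replicate 3 of that label (-0.36, adjusted p = 0.0435). Leaving out any other library gave no ABCA3 call with ML210. Labelled SK-N-AS, ABCA3 differed by -0.03 (SE 0.129). ABCB10 had 51.97, 50.4 and 54.1 CPM with ML210 and 59.96, 52.2 and 54.2 CPM in controls labelled SK-N-BE(2) (-0.09, SE 0.0766), and ABCD3, a peroxisomal importer, had 63.9, 53.0 and 54.5 against 62.2, 58.0 and 54.6 CPM (-0.03, SE 0.0827). Labelled SK-N-AS, ABCD3 had 48.04, 52.4 and 49.5 CPM with ML210 and 52.3, 48.8 and 56.8 CPM in controls (-0.07, SE 0.0829), and ABCB10 had 45.5, 42.8 and 39.3 against 47.3, 40.9 and 44.6 CPM (-0.06, SE 0.077). A difference of the size of its SE does not show that levels were the same.

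Genes that work with the transporters were taken from 8 lists. Of 14 tested genes of glutathione conjugation, which makes substrates of ABCC1 and ABCC2, 2 were called higher with ML210 labelled SK-N-BE(2), where 1.37% of all genes were called in either direction, and 0 labelled SK-N-AS, where 0.0296% were. With batch in the fit 4 were called higher labelled SK-N-BE(2) (28.6%, against 6.83% of all genes) and 1, GCLM, labelled SK-N-AS (7.14%, against 0.187%). GCLM, the modifier subunit of the enzyme that starts glutathione synthesis, had 120.6, 87.1 and 65.7 CPM with ML210 and 40.5, 33.3 and 31.5 CPM in controls labelled SK-N-BE(2) (1.38, SE 0.206, adjusted p = 0.0144). Labelled SK-N-AS it had 37.5, 36.1 and 32.7 CPM with ML210 and 27.8, 20.2 and 21.3 CPM in controls (0.62, SE 0.206, adjusted p = 0.587; 0.0452 with batch), and the responses differed by 0.76 (SE 0.288, adjusted p = 0.626). GSTM3, a glutathione transferase, had 22.3, 25.4 and 22.4 CPM with ML210 and 14.8, 19.5 and 17.1 CPM in controls labelled SK-N-BE(2) (0.45, SE 0.0902, adjusted p = 0.0277). For the mean of both labels GCLM (1.00, SE 0.145, adjusted p = 0.015) and GCLC, the catalytic subunit (0.29, SE 0.0544, adjusted p = 0.0241), were called.

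In the list of heme synthesis and mitochondrial carriers, the setting of ABCB10 and ABCB6, 1 of 12 was called with ML210 labelled SK-N-BE(2), against 1.37% of all genes, and 2 (16.7%) with batch in the fit, against 6.83%. FECH, which inserts iron into protoporphyrin, had 74.8, 67.7 and 60.2 CPM with ML210 and 51.5, 49.7 and 49.5 CPM in controls (0.43, SE 0.0773, adjusted p = 0.0188). Without batch in the fit, edgeR called no gene in any ML210 comparison in the lists of sterol export and LXR response (14 tested), xenobiotic and stress regulators of efflux pumps (11), peroxisomal fatty acid oxidation and import (12), cobalamin handling (8), ribosome recycling and ABCF partners (12) or KATP channel pores (2). With batch, against 6.83% of all genes labelled SK-N-BE(2), these lists had 3, 1, 1, 0, 2 and 1 genes called there in the same order. In the sterol list 2 of them were higher, NPC1 (0.32, SE 0.0599, adjusted p = 0.00823) and RXRA (0.27, SE 0.0713, adjusted p = 0.041), and 1 was lower. KCNJ8, the pore that pairs with ABCC9, was lower (-0.59, SE 0.0707, adjusted p = 0.000706), and so was SREBF1, which drives lipid synthesis (-0.43, SE 0.0537, adjusted p = 0.00082). SREBF1 was also called lower labelled SK-N-AS (-0.32, SE 0.0525, adjusted p = 0.0352). KCNJ8 and SREBF1 were singled out after their values were seen, and without batch neither passed labelled SK-N-BE(2) (adjusted p = 0.11 for KCNJ8 and 0.365 for SREBF1).

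Between controls, the lists split in both directions as the transporters did. Sterol export and LXR response had 6 higher and 6 lower of 14 labelled SK-N-BE(2); SCARB1, a lipoprotein receptor, was lower (-1.61, adjusted p = 9.23e-11) and NPC2, a lysosomal cholesterol carrier, higher (4.75, adjusted p = 1.71e-09). Among the efflux pump regulators 5 were higher and 3 lower of 11, with the membrane-cytoskeleton linkers MSN higher (3.40, adjusted p = 1.88e-10) and RDX lower (-1.25, adjusted p = 3.18e-10). Glutathione conjugation had 3 higher and 6 lower of 14, with GSTP1 lower (-3.94, adjusted p = 5.49e-12) and GSTK1 higher (1.17, adjusted p = 3.55e-09). The peroxisomal list had 6 higher and 4 lower of 12, with SLC27A4 lower (-1.47) and SCP2 higher (1.19), and the heme list 7 higher and 2 lower of 12, with UROD (0.79) and TMEM14C (0.71) having its smallest adjusted p. Cobalamin handling had 5 higher and 2 lower of 8, with CD320 lower (-1.31) and MMACHC higher (1.72), and ribosome recycling 5 and 5 of 12, with HBS1L (-1.49) and GSPT1 (-0.59) lower. The share called in these lists stands beside 69.2% of all genes.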

How the data were processed

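RNA was extracted from the cultures and made into stranded mRNA libraries, per the labels' protocols. The deposited values were whole-number counts per gene, not normalized by the authors. The tools listed for the reads were FastQC, Trimmomatic 1.4, HISAT2 2.2.1 and featureCounts 2.0.5 on GRCh38, with no role or order, per the submitters' processing notes. The sources used here give neither the strand setting nor the handling of multi-mapping reads, so genes that share exonic bases or near-identical sequence have uncertain counts. Library totals were 54047293 to 83481963 reads.

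Symbols came from a gene name table and coordinates and exon lengths from GENCODE 29. Counts were tested with edgeR 4.0.16 in R 4.3.3 (TMM scaling, filterByExpr by group, robust glmQLFit and glmQLFTest, two-sided) in 1 fit over 12 libraries with a coefficient per group, Benjamini-Hochberg adjustment over 20304 genes and a threshold of 0.05; adjusted p-values come from this test except where DESeq2 or the block is stated. The common dispersion was 0.0223 with 8 residual degrees of freedom. The SE is the log2 difference divided by the root of F. CPM used TMM-scaled totals, and RPKM divided CPM by exonic length. Counting intervals and the floor of 3 reads cover counting error only. The fit without batch was run on simulated counts drawn without a batch effect. That run does not bear on the fit with the block.

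The replicate number equals a batch label, which pairs libraries. Deviations from group means of same-batch ML210 and control libraries correlated at 0.0957, 0.12 and 0.169 labelled SK-N-BE(2) and 0.357, 0.0677 and 0.121 labelled SK-N-AS. Deviations within a group cancel by construction, so pairs of unlike batch are tied to the same-batch pairs and are no separate evidence of pairing. Unlike pairs were all negative labelled SK-N-BE(2) (-0.1 to -0.00693). Labelled SK-N-AS, replicates 2 and 3 gave 0.125 (ML210 2, control 3) and 0.189 (ML210 3, control 2), and the other unlike pairs were negative. Same-batch pairs across line labels were negative too, at -0.0821 to -0.00276 between controls and -0.0392 to -0.0144 between ML210 libraries. A fit with that block, DESeq2 1.42.0, other scalings, no filter, 2 groups alone and each library left out were alternatives.

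The members and lists were chosen with earlier results of these data known, so lists are described by counts and medians beside those of all genes. Values in every library are given for members called in an ML210 comparison, up to 8 called members each way with the largest difference between controls, the highest member per subfamily and line label, and the 3 members with the smallest p in each ML210 comparison without a call; from the partner lists, genes called with ML210 and up to 2 per list with the smallest adjusted p between controls.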

Additional observations from a re-analysis of the deposited data

Results flagged for a closer look

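ABCB8 was picked out because its responses to ML210 went in opposite directions: all 3 same-batch pairs were higher with ML210 labelled SK-N-BE(2) and all 3 were lower labelled SK-N-AS. The difference of the responses was 0.28 on the log2 scale, and the test of that difference did not pass (adjusted p = 0.574).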

How the results depend on the processing

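The count of members called with ML210 labelled SK-N-BE(2) was 0, against 1.37% of all genes. It became 1 with DESeq2 (against 2.04%), 1 with DESeq2 size factors in edgeR (1.22%) and 1 without the filter (1.5%), ABCB1 each time. With the replicate block it was 5 (against 6.83%), and leaving out a library gave 0 to 4 (0.228% to 5.9%). For the mean of both labels it was 0 (against 1.23%) and became 2 with DESeq2 (2.1%), 1 without the filter (1.44%) and 3 with the block (6.11%). With a library left out it was 0 to 3 (0.299% to 4.78%). Between line labels, the 2 groups compared alone gave 30 of 33 tested members between controls (against 70.6% of all genes) and 26 of 33 between ML210 libraries (70.2%). Adding the block to that fit gave 28 (against 67.0%) and 25 (66.5%). Genes called with ML210 labelled SK-N-BE(2), 279 in the fit as reported, were 753 with DESeq2, 556 without the filter, 51 in a fit of the 2 groups alone, 1386 with the block and 48 to 1242 with a library left out; 1242 genes and 4 members (ABCB1, ABCC2, ABCD2 and ABCA3) were called without ML210 replicate 3 of that label. Labelled SK-N-AS, 6 became 47, 33, 21 and 38 under the same settings, and 3 to 6 with a library left out. For the mean, 250 became 775 with DESeq2, 531 without the filter, 1240 with the block and 63 to 1006 with a library left out. For the difference of the responses, 1 became 39 with DESeq2, 24 without the filter, 85 with the block and 1 to 156, the 156 without the same ML210 library; no member was called for it or labelled SK-N-AS in any of these. Between controls 28 to 32 members and 13401 to 13541 genes (63.6% to 64.2%) were called with a library left out. Between ML210 libraries it was 26 to 29 members and 13281 to 13696 genes (63.0% to 65.1%). Library totals turned ABCB8 between controls to 0.06 and ABCF3 between ML210 libraries to 0.03. The causes were not tested. Low counts limit the 9 untested members and ABCA9, ABCC8, ABCC11 and ABCG2, each with under 300 reads in all.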
